A study of Mus musculus with 61 samples.

Results

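The astrocyte genes are 10 genes whose products mark astrocytes or carry out their main tasks: Gfap, Aqp4, Slc1a2, Slc1a3, Aldh1l1, Aldoc, Gja1, Gjb6, S100b and Agt. They are named for their place in astrocyte biology, and the rule uses no measured value, although earlier results of these data were known when they were picked. For each gene, the probe with the highest mean intensity was taken among the array probes whose RefSeq identifier gives that symbol, and 9 of the 10 genes were measured in this way, of 16358 genes named on the array. Gjb6 could not be tied to a probe and has no value here. The expression of the 9 genes was followed through 61 fractions of the adult mouse brain, and all 9 were well above background on all 61 arrays.

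The fractions came from 6 brains of 8-week-old male C57BL/6J mice, with no treatment and no genetic change in any of them. Each frozen brain was cut from end to end in 1 plane and collected as slabs 1 mm thick, and the RNA of each slab was hybridised to 1 one-colour Agilent array. The coronal series C (13 fractions) and Co (16) run from the posterior to the anterior end, the sagittal series S (9) and So (10) from left to right, and the horizontal series H (6) and Ho (7) from dorsal to ventral. The o series were cut slightly oblique to the plane. The labels number the S fractions from 2, and they are called S1 to S9 here. Matching fractions of both brains of a plane form 28 pairs, named c1 to c13, s1 to s9 and h1 to h6, which the study picked by the correlation of these same arrays. The fractions So1, Co1, Co13, Co16 and Ho1 are in no pair. Each plane therefore has 2 mice, which also differ in cutting angle, and for the sagittal and coronal planes almost wholly in scanning day, so that mouse, angle and scan cannot be told apart. A slab holds every structure at its level, and in such a mixture fewer astrocytes and less RNA per astrocyte cannot be told apart.

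Astrocytes are the glial cells that clear glutamate and potassium from the space around synapses, pass water at the vessel wall through their end feet, share small molecules through gap junctions and feed neurons with products of sugar breakdown. They are not alike from place to place: protoplasmic astrocytes fill grey matter, fibrous astrocytes lie along white matter tracts and the brain surface, and Bergmann glia form a sheet of radial fibres in the cerebellar cortex. Astrocytes also keep a mark of their origin, so that those of the telencephalon (cortex, hippocampus, striatum and olfactory bulb) express partly different genes from those of the thalamus, hypothalamus, midbrain and hindbrain.

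All values below are log2 intensities relative to the 75th percentile of the same array, so that 0 is the level of that percentile and a difference of 1 is a doubling. They compare 1 probe between fractions and say nothing of which gene is more abundant. The arrays had 57.9% to 73.1% of probes well above background, a 75th percentile between 739.7 and 1971 intensity units, and 0 saturated probes. Tests are limma's moderated tests on the 56 paired arrays, with p-values adjusted by the Benjamini-Hochberg method over all 36573 probes detected on at least 1 array, and a probe is called at an adjusted p under 0.05. A pair is 2 mice at a matching position, and the spread used is that within pairs, pooled over all 28 pairs and planes. Slabs of 1 mouse count as separate in it, although each plane has only 2 mice. Deviations from the pair means were related within a plane (median r = 0.278). The pairs were also picked by the correlation of these arrays, so the p-values do not measure the spread between mice in general.

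The upstream sequence is shown for 3 of the genes that were higher at the caudal end with no overlap of the zones compared below (Agt, S100b and Aldoc). They are the 250 bases before the RefSeq start of each gene, build GRCm38.p6, read 5′ to 3′ on the strand of the gene. Capitals mark 3 motifs searched on both strands: the TATA box TATAAA (other strand TTTATA), the nuclear factor I half-site TTGGC (other strand GCCAA) and the STAT spacing TTCNNNGAA. The Agt window lies at chr8:124569707-124569956 on the minus strand, that of S100b at chr10:76253586-76253835 on the plus strand and that of Aldoc at chr11:78322823-78323072 on the plus strand.
Agt: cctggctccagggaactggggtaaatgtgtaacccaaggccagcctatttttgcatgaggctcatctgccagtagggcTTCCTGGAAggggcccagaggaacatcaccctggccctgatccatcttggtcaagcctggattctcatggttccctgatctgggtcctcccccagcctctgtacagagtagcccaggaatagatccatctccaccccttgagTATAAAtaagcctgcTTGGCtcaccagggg
S100b: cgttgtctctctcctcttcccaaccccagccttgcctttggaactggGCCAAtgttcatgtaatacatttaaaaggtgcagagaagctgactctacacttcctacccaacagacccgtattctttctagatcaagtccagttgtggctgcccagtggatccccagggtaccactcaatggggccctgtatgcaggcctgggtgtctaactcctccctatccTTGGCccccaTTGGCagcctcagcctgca
Aldoc: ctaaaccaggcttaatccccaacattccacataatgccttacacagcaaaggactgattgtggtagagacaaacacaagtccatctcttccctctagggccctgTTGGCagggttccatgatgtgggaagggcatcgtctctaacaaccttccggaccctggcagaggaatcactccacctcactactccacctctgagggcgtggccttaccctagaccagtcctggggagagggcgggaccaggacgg
The Agt window holds all 3 motifs, with TATAAA beginning 30 bases before the start. S100b has 3 half-sites in the bases shown, and Aldoc has 1. No match overlapped another. Of all 32851 RefSeq promoters, each taken from 250 bases before to 50 after the start, 13.6% hold TATAAA, 46.7% TTGGC and 8.3% TTCNNNGAA, so that a half-site alone is common. Promoter windows were matched for 9 of the 10 genes, and Aqp4 was not among them. The Slc1a2 window, which held a half-site, lies before an internal start of the annotated gene and is not shown. In the same search Slc1a3 held TTTATA and TTCNNNGAA, the second Aldoc window held 2 of TTCNNNGAA, Gfap held 1 of these that spans its start, and Aldh1l1, Gja1 and Gjb6 held none of the 3 motifs. A match describes these letters and is no evidence that a factor binds there.

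Of the 9 genes, 7 varied over the 28 pairs, against 61.3% of all probes tested. The largest F values were those of Aqp4 (22.3, adjusted p = 1.02e-11), the water channel of the end feet, and Agt (18.0, adjusted p = 1.13e-10), the precursor of the angiotensins. S100b, a calcium-binding protein, followed with 8.68 (adjusted p = 3.81e-07), and Gfap, the intermediate filament of fibrous astrocytes, with 6.50 (adjusted p = 7.11e-06). The transporters Slc1a2 (4.31, adjusted p = 3.05e-04) and Slc1a3 (4.29, adjusted p = 3.13e-04) and the glycolytic enzyme Aldoc (3.81, adjusted p = 8.29e-04) were past the threshold as well. Gja1, the gap junction protein connexin 43, had an F of 1.60 (adjusted p = 0.148) and Aldh1l1, a folate enzyme widely used as an astrocyte marker, one of 1.15 (adjusted p = 0.417). With the mouse as a block, both were past the threshold (adjusted p = 5.09e-06 for Gja1 and 0.00637 for Aldh1l1), and 9 of 9 genes were called. The share of all probes called in that fit is not reported here. Gja1 was also called without C11 (F of 2.07), and Aldoc was not called under a fixed slide effect (adjusted p = 0.440).

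The genes differed in how far they ranged over the 61 fractions. Agt ranged over 4.64 log2 units, wider than 86.1% of all probes tested, and Gfap over 4.01, wider than 79.9%. Aqp4 ranged over 3.03 and S100b over 2.17, against a median range of 2.13 over all probes. Slc1a3 (1.93), Gja1 (1.73) and Slc1a2 (1.67) ranged less than the median probe. Aldoc (1.19) and Aldh1l1 (1.01) were among the steadier probes, with 22.0% and 14.8% of all probes ranging less. Markers of the same cell type thus differed widely in how evenly they were spread through the brain.

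**Figure D1:**
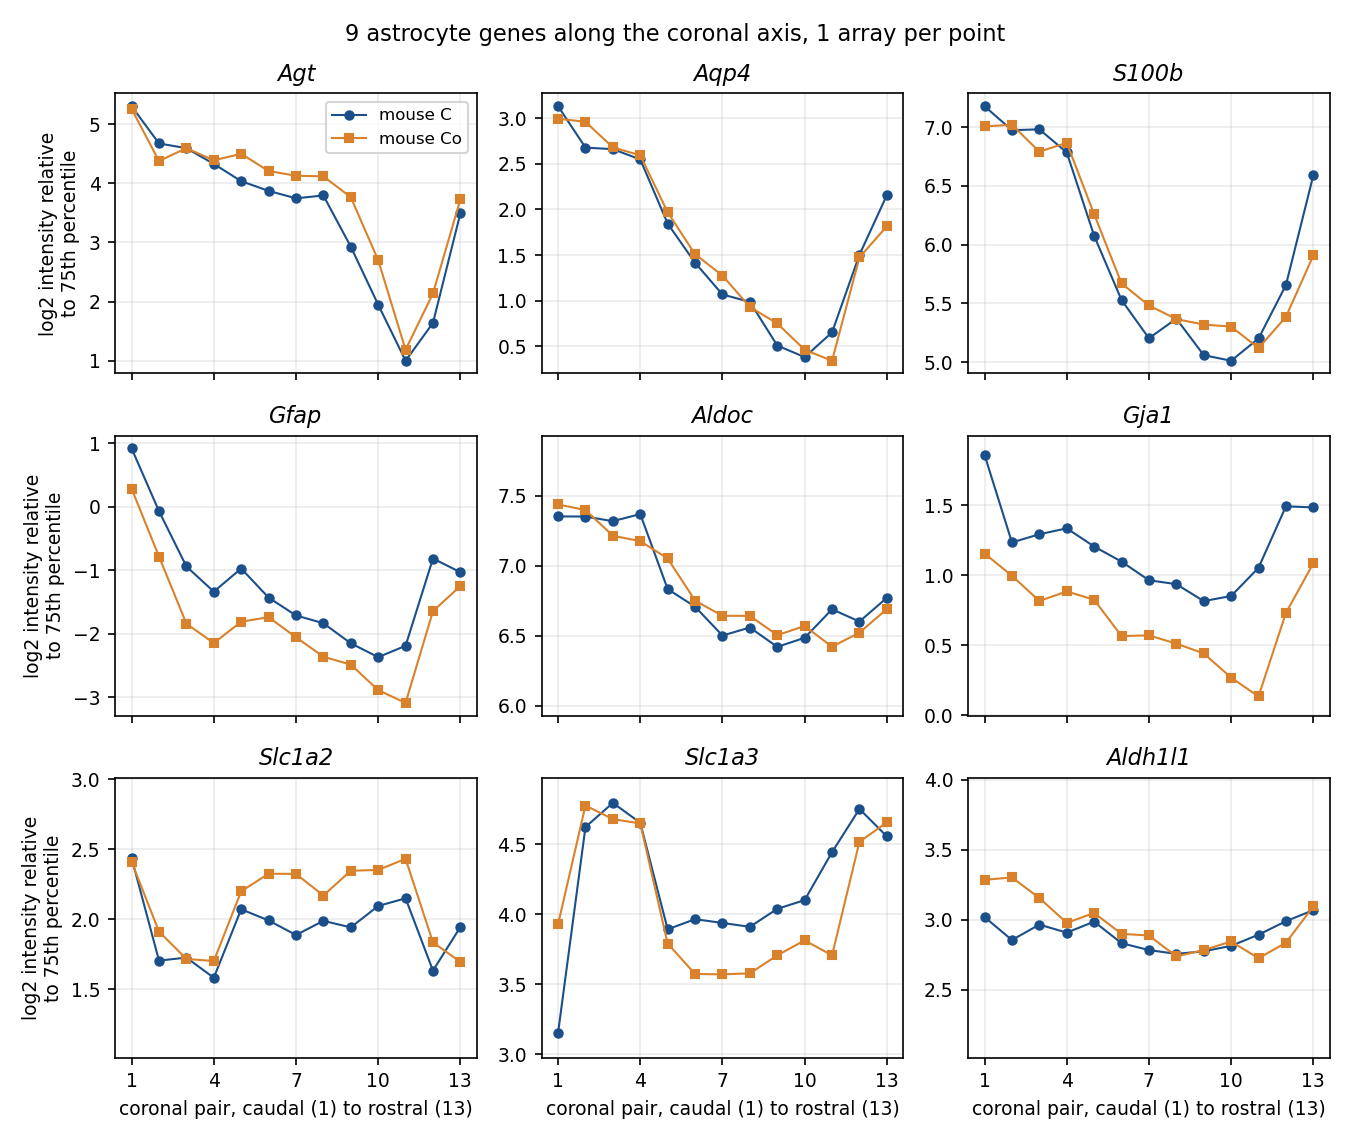
Log2 intensity of 9 astrocyte genes relative to the 75th percentile of each array (vertical axis, own range for each gene) over the 13 coronal pairs from the caudal to the rostral end (horizontal axis). Each point is 1 array, with circles for mouse C and squares for mouse Co. Agt, Aqp4 and S100b fall from the caudal end to pairs c10 or c11 and rise at c13, Slc1a3 is high in c2 to c4 and, in mouse C, lowest at c1 (3.15), and Slc1a2 is low where Slc1a3 is high.

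For 7 of the 9 genes the pair means spanned more along the coronal axis than in either other plane. The exceptions were Slc1a2 and Aldh1l1. Slc1a2 spanned 0.80 in the sagittal and 0.78 in the coronal plane, and Aldh1l1 0.51 in the horizontal and 0.40 in the coronal plane. The coronal plane has the most pairs, and a span from lowest to highest tends to widen with their number. The share of all probes with their widest span there is not given, so this count cannot be set against a background. Comparing the 4 most caudal pairs, c1 to c4, with the 4 most rostral, c10 to c13, asked which astrocyte genes change from the hindbrain end to the olfactory end. Of the 9 genes, 5 were higher caudally and 0 were lower. Over all probes tested, 27.5% were higher and 20.2% lower. The median difference of the 9 genes was 0.73, and that of all probes 0.10. Scaling each array by its median in place of the 75th percentile moved the median of all probes to −0.05, and the calls from 10045 higher and 7374 lower to 7000 and 10249, so that a small caudal difference is to be read against that shift.

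Agt showed the largest caudal excess. The 8 caudal arrays had a lowest value of 4.33, a median of 4.60 and a highest of 5.31, and the 8 rostral arrays 1.00, 2.04 and 3.73. Every caudal array was above every rostral one. The difference was 2.46 ± 0.17 (SE), or 5.52-fold (adjusted p = 8.63e-14), and it was 2.71 in mouse C and 2.22 in mouse Co. Along the axis Agt did not fall evenly. From c2 to c8 the pair means lay between 3.94 and 4.60, they dropped to 3.35 at c9, 2.33 at c10 and 1.09 at c11, and at c13, the olfactory end, they were back at 3.61. The step from c9 to c10, 1.02, was the largest between neighbours in the order of levels, against a pooled SD of 0.30 between mice. The lowest of all 61 values was the unpaired Co13 (0.80), and the highest the unpaired Co1 (5.44).

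Aqp4 followed the same direction with less spread between mice. Its caudal arrays ran from 2.55 through a median of 2.68 to 3.13, and its rostral arrays from 0.34 through 1.06 to 2.16, with no overlap. The difference was 1.69 ± 0.10 (SE), 3.22-fold (adjusted p = 7.41e-15). The pooled SD of the coronal pairs was 0.13, and only 4 of the 12 steps between neighbours in its order lay within that SD. The order from high to low began with c1, c2, c3 and c4 and ended with c9, c11 and c10. The other 2 Aqp4 probes followed this one with r = 0.989 and 0.988 over the 61 fractions, which share their arrays.

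S100b repeated this shape on another scale. The caudal arrays lay at 6.78, 6.98 and 7.18 (lowest, median, highest) and the rostral arrays at 5.01, 5.34 and 6.59. The zones did not overlap, and the difference was 1.43 ± 0.13 (SE), 2.69-fold (adjusted p = 1.16e-10). Aldoc moved less but with as clear a separation. Its caudal arrays lay between 7.18 and 7.44 with a median of 7.35, and its rostral arrays between 6.42 and 6.77 with a median of 6.59, a difference of 0.73 ± 0.09 (SE), 1.66-fold (adjusted p = 5.10e-08). In Aldoc the largest step between neighbours, 0.32, separated c1 to c4 from c5.

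Gfap was higher caudally with overlapping zones. The caudal arrays had a lowest value of −2.15, a median of −0.86 and a highest of 0.92, and the rostral arrays −3.09, −1.92 and −0.82. The high caudal values were those of c1, at 0.92 in mouse C and 0.28 in mouse Co, and of c2, at −0.07 and −0.79, whereas c3 and c4 had fallen to between −0.94 and −2.15. The difference of the zones was 1.17 ± 0.20 (SE), 2.25-fold (adjusted p = 8.75e-06). The step from c1 to c2, 1.03, was the largest in its order. Thus Gfap peaked at the most caudal level, and Aqp4, S100b and Aldoc stayed high over c1 to c4.

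The remaining 4 genes were not called between the zones. Gja1 was 0.31 ± 0.14 (SE) higher caudally (adjusted p = 0.0761), with caudal arrays from 0.82 to 1.86 and rostral arrays from 0.13 to 1.49. With the mouse as a block its adjusted p was 7.71e-04. Without C10, C11, C12, Co2, Co4 or Co5 in turn, Gja1 was also past the threshold, with differences of 0.38, 0.42, 0.40, 0.40, 0.37 and 0.37. Aldh1l1 differed by 0.15 ± 0.09 (SE, adjusted p = 0.170), which was called with the mouse as a block (adjusted p = 0.0240). Slc1a2 differed by −0.12 ± 0.10 (SE, adjusted p = 0.346) and Slc1a3 by 0.09 ± 0.11 (SE, adjusted p = 0.540), and with median scaling these became −0.26 (adjusted p = 0.0196) and −0.06, the latter not called.

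No slide held arrays of both the caudal and the rostral zone. A random slide effect kept all 5 calls, and under a fixed slide effect the differences were 2.20 for Agt (adjusted p = 0.0439), 1.54 for Aqp4 (adjusted p = 0.0438), 1.20 for S100b (adjusted p = 0.147), 0.87 for Gfap (adjusted p = 0.395) and 0.51 for Aldoc (adjusted p = 0.397).

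Markers of other cells moved along the same axis. All 9 oligodendrocyte genes tested were higher caudally (median 1.09), and the sum of their relative intensities, in units of the 75th percentile, ran from 282 to 466 in the caudal and from 106 to 221 in the rostral arrays. Of 7 meningeal fibroblast genes, 4 were higher and 1 was lower, with sums of 20.4 to 53.1 and 10.6 to 45.0. Of 5 choroid plexus genes named, 4 were higher and 1 was lower, with sums of 0.842 to 24.0 and 1.62 to 5.02, and all 5 microglial genes named were lower caudally, with sums of 4.90 to 10.9 and 11.9 to 16.8. No gene of these 4 lists was below background on all arrays of a zone. The sums of the Purkinje cell genes were 48.0 to 220 in the caudal and 17.0 to 63.9 in the rostral arrays. The part of all these cells in the caudal values of the astrocyte genes, Aldoc among them, was not tested.

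The middle of the coronal axis was then set against both ends. The mean of c5 to c9 minus the mean of both end zones was negative and past the threshold for 5 genes and positive for 1, against 19.9% lower and 15.3% higher of all probes, with a median of −0.30 for the 9 genes and −0.07 for all probes. Aqp4 was lower by 0.72 ± 0.08 in the middle (SE, adjusted p = 3.54e-08), with 10 middle arrays from 0.51 through a median of 1.17 to 1.97 and 16 end arrays from 0.34 through 2.35 to 3.13. S100b was lower by 0.70 ± 0.11 (SE, adjusted p = 4.08e-06) and Gfap by 0.53 ± 0.16 (SE, adjusted p = 0.00921). The caudal zone carried these differences, since the mean of the rostral zone was close to that of the middle, at 1.10 and 1.22 for Aqp4, 5.52 and 5.53 for S100b and −1.91 and −1.86 for Gfap. Within the rostral zone Aqp4 ran from 0.38 and 0.46 at c10 to 2.16 and 1.82 at c13, and S100b from 5.01 and 5.30 to 6.59 and 5.91. Aldoc was lower in the middle by 0.30 ± 0.07 (SE, adjusted p = 0.00185). Agt went the other way, 0.45 ± 0.13 higher in the middle (SE, adjusted p = 0.00886), since its lowest pairs were c10 to c12, all in the rostral zone. A fixed slide effect ended the calls of Gfap (adjusted p = 0.114), Aldoc (adjusted p = 0.419) and Agt (adjusted p = 0.245). Within the 3 slides that held both middle and end arrays, Slc1a3 was lower in the middle in all 3, Aqp4, S100b and Aldoc in 2 each and Gfap in 1, and Agt was higher in 2.

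Slc1a3, the glutamate transporter GLAST of radial glia and Bergmann glia, had a pattern of its own. It was lower in the middle by 0.57 ± 0.09 (SE, adjusted p = 6.87e-06). The middle arrays lay between 3.57 and 4.04 with a median of 3.84, and the end arrays between 3.15 and 4.79 with a median of 4.59. At c2, c3 and c4 all 6 values were between 4.62 and 4.79, and at c12 and c13 all 4 were between 4.52 and 4.75. At c1, in contrast, the values were 3.15 in mouse C and 3.93 in mouse Co, and the unpaired Co1 had 2.87, the lowest of all 61. The most caudal fraction, C1 in mouse C and the unpaired Co1 in mouse Co, was thus the lowest for Slc1a3 in both mice. It was the highest for Agt, Aqp4 and Gfap. The c1 value of mouse Co comes from Co2, and in that mouse the pairs c5 to c11 lay below it.

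Slc1a2, the glutamate transporter GLT-1 that takes up most glutamate in the forebrain, was nearly its reverse along the coronal axis, though not in the other planes. It was lowest at c4, c3, c12 and c2 with means of 1.64, 1.72, 1.74 and 1.81, where Slc1a3 was high, and 2.43 at c1, its highest pair. From c5 to c11 the means lay between 2.08 and 2.29. The middle was 0.17 ± 0.08 above the ends (SE, adjusted p = 0.103), which was called with the mouse as a block (adjusted p = 0.0101) and without C7 (0.21). In the same fit with the block, Gja1 (adjusted p = 0.00119) and Aldh1l1 (adjusted p = 0.0162), both lower in the middle, were called as well, and Gja1 also without Co2 (−0.29), Co12 (−0.31) or Co14 (−0.30). Of 12 steps in the coronal order, 11 were within the pooled SD for Slc1a2 and for Slc1a3, and all 12 were for Gja1 and Aldh1l1, so that the order of single neighbouring levels is not resolved for these genes.

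**Figure D2:**
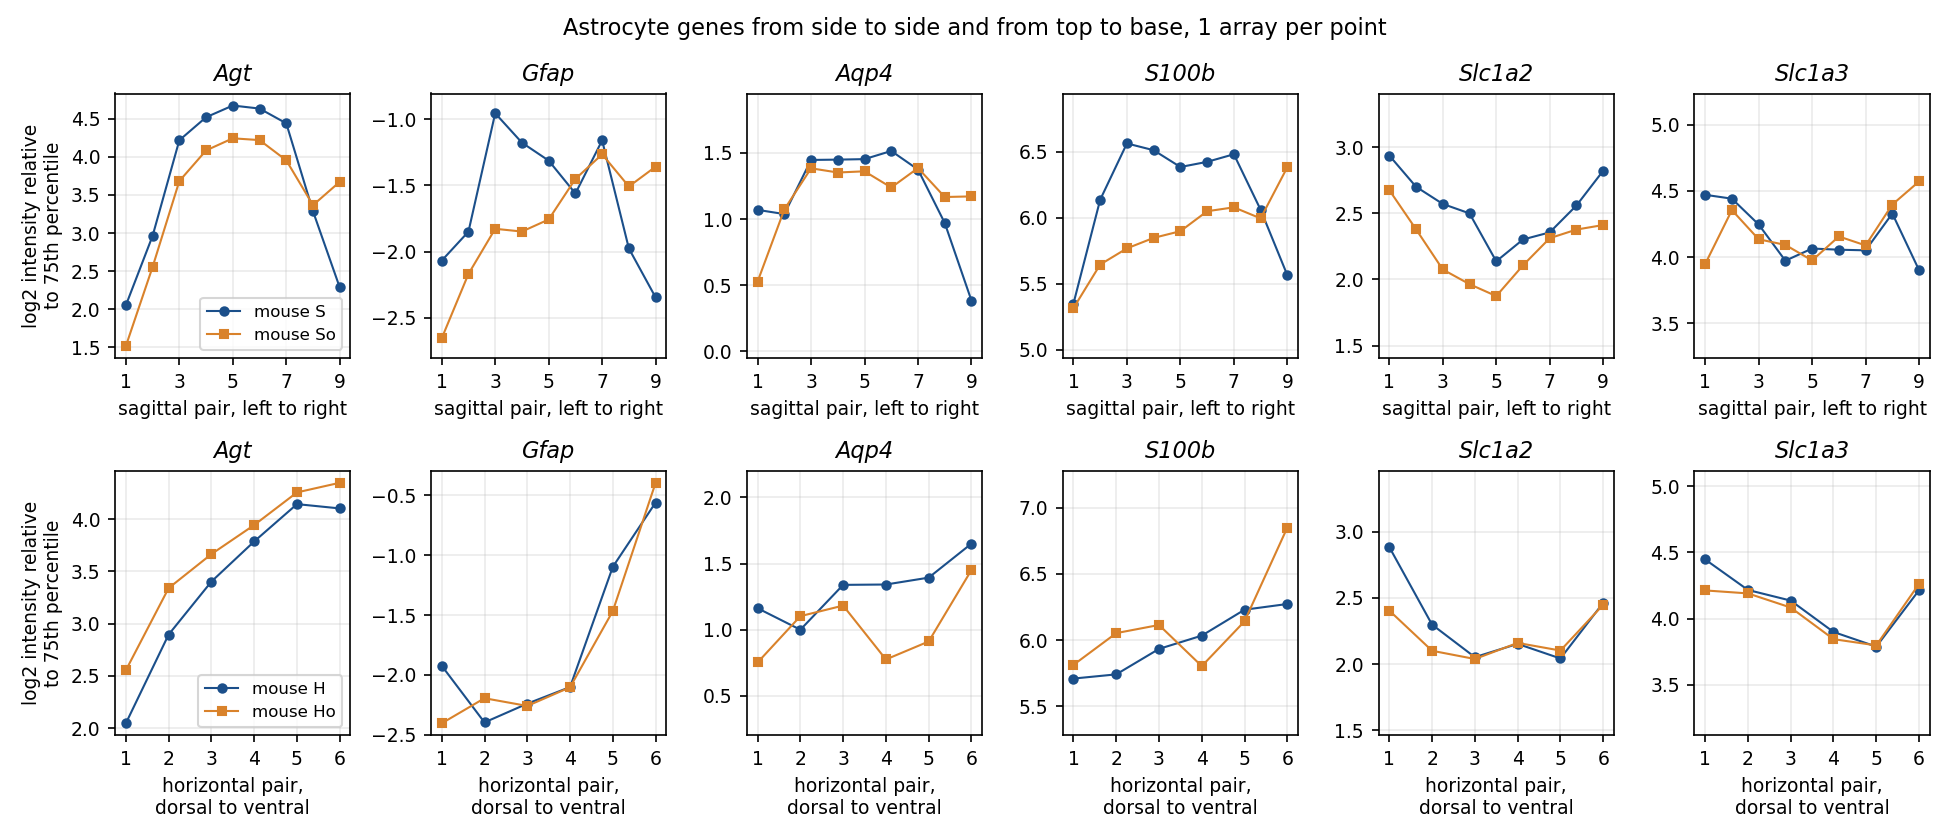
Log2 intensity of 6 astrocyte genes relative to the 75th percentile of each array (vertical axes, own range for each panel) over the 9 sagittal pairs from left to right (upper row) and the 6 horizontal pairs from dorsal to ventral (lower row). Each point is 1 array, with circles for mice S and H and squares for mice So and Ho. Agt is highest at the midline and rises to the base of the brain, Slc1a2 is highest at both sides, and Gfap is highest in the most ventral pair.

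From top to base, the ventral pairs h5 and h6 were compared with the dorsal pairs h1 and h2. Of the 9 genes, 3 were higher ventrally and 0 were lower, against 8.47% higher and 5.81% lower of all probes, with medians of 0.35 and −0.01. Agt had ventral values of 4.10 and 4.14 in mouse H and of 4.26 and 4.35 in mouse Ho, and dorsal values of 2.05 and 2.89 in mouse H and 2.55 and 3.34 in mouse Ho. The groups were apart and the difference was 1.50 ± 0.23 (SE), 2.84-fold (adjusted p = 2.21e-05). Gfap had ventral values of −1.10 and −0.56 in mouse H and −1.47 and −0.39 in mouse Ho, and dorsal values of −1.92 and −2.40 in mouse H and −2.40 and −2.19 in mouse Ho. These groups were apart as well, and Gfap differed by 1.35 ± 0.28 (SE), 2.55-fold (adjusted p = 7.50e-04). Its rise came in the last 2 pairs, since h3 and h4 had stayed near the dorsal level.

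S100b had ventral values of 6.23 and 6.27 in mouse H and 6.14 and 6.85 in mouse Ho, and dorsal values of 5.71 and 5.74 in mouse H and 5.81 and 6.05 in mouse Ho. The groups did not overlap, and the difference was 0.55 ± 0.19 (SE, adjusted p = 0.0467). With median scaling it had an adjusted p of 0.0683. Of the 56 arrays, leaving out each of 28 in turn ended the call, among them Ho7 (0.40, adjusted p = 0.268) and H2 (0.47, adjusted p = 0.211). Gja1 was 0.38 ± 0.20 higher (SE, adjusted p = 0.261, and 0.00783 with the mouse as a block), and Aqp4 0.35 ± 0.14 (SE, adjusted p = 0.118). Slc1a2 was highest at the top, with 2.88 in H1 and 3.16 in the unpaired Ho1, but was also raised to 2.46 and 2.45 in h6. Under a fixed slide effect 0 of the 9 genes was called, with Agt at 1.44 (adjusted p = 0.108), Gfap at 1.44 (adjusted p = 0.0556) and S100b at 0.58 (adjusted p = 0.434), and no slide held both zones. That effect also cut the calls over all probes from 5224 to 1617. All 9 oligodendrocyte genes were higher ventrally too, with sums of 224 to 280 against 71.4 to 210, as were all 5 choroid plexus genes named, with sums of 3.94 to 6.51 against 0.697 to 6.38, and of 7 meningeal fibroblast genes 2 were higher, with sums of 22.0 to 50.5 against 18.3 to 41.3. Their part was not tested. Median scaling turned the calls over all probes from 3099 higher and 2125 lower to 2349 and 2936.

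From side to side, the midline pairs s4 to s6 were compared with the lateral pairs s1, s2, s8 and s9. Of the 9 genes, 2 were higher at the midline and 1 was lower, against 10.6% and 9.01% of all probes, with medians of 0.26 and 0.00. Median scaling turned the calls over all probes from 3867 higher and 3296 lower to 2617 and 5636. Agt was higher by 1.69 ± 0.18 (SE), 3.22-fold (adjusted p = 2.30e-08). Its 6 midline arrays lay at 4.09, 4.38 and 4.68 (lowest, median, highest) and its 8 lateral arrays at 1.51, 2.76 and 3.67. The zones did not overlap, and Agt was higher at the midline within each of the 4 slides that held both zones, by 0.70 to 1.85.

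Slc1a2 was the gene called lower at the midline. Its 6 midline arrays had a lowest value of 1.87, a median of 2.12 and a highest of 2.50, and its 8 lateral arrays 2.38, 2.62 and 2.94. Only S4, at 2.50, reached the lateral values, and the difference was −0.46 ± 0.11 (SE), 1.38-fold lower (adjusted p = 0.00166). It was lower at the midline within 4 of 4 slides, by −0.46 to −0.29. Both mice had their lowest value at s5, 2.14 in mouse S and 1.87 in mouse So. Slc1a3 went the same way without being called, at −0.25 ± 0.12 (SE, adjusted p = 0.159), and was lower within 4 of 4 slides. Slc1a2 and Slc1a3 shared their lowest sagittal pair, s5, and their highest horizontal pair, h1.

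Aqp4 was higher at the midline by 0.47 ± 0.11 (SE, 1.39-fold, adjusted p = 0.00201). Its midline arrays lay between 1.24 and 1.51 and its lateral arrays between 0.38 and 1.17, with no overlap, and it was higher within 4 of 4 slides, by 0.07 to 0.84. Another Aqp4 probe gave the same difference with an adjusted p of 0.0507. With the mouse as a block 3 further genes were called, all higher at the midline: Gfap (0.47, adjusted p = 0.0143), Gja1 (0.26, adjusted p = 0.0118) and S100b (0.38, adjusted p = 0.0282), which without the block had adjusted p values of 0.128, 0.280 and 0.0604. Over all probes the block raised the calls from 7163 to 12170. Under a fixed slide effect Aldh1l1 was called lower at the midline (−0.15, adjusted p = 0.0206), with 13495 calls over all probes. S100b was also called without S2 (0.44), S3 (0.38), So4 (0.38), So5 (0.49), So6 (0.46), So7 (0.44), So10 (0.48), C13 (0.38) or Co15 (0.38), Gfap without So10 (0.60) and Slc1a3 without S9 (−0.33). All 9 oligodendrocyte genes were higher at the midline, with sums of 266 to 353 against 87.6 to 226, and their part was not tested.

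**Figure D3:**
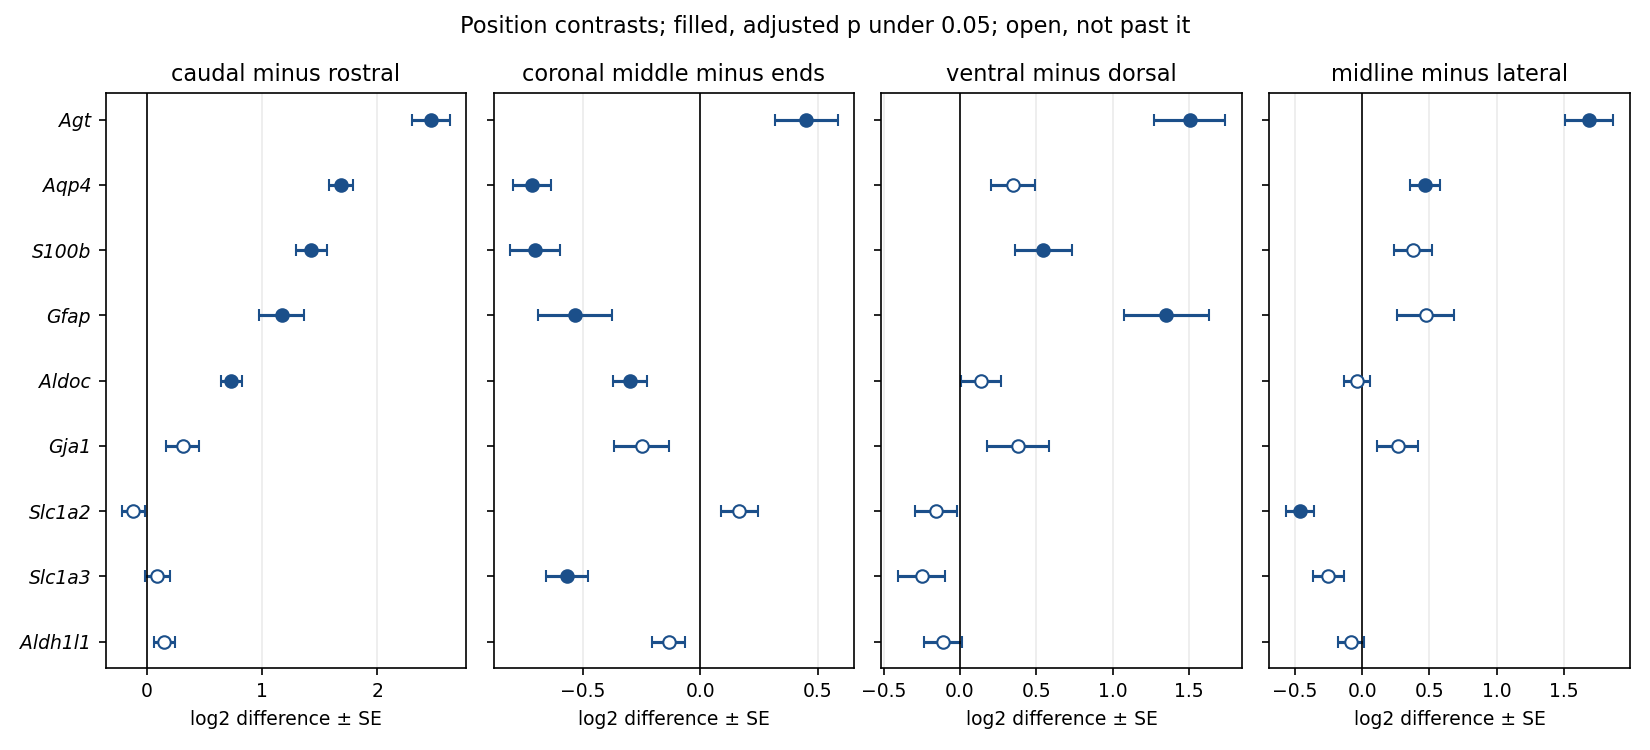
Differences of 9 astrocyte genes between positions in the brain, as log2 differences with their standard errors (horizontal axes, own range for each panel), 1 gene per line. Filled points have an adjusted p under 0.05 in limma over 36573 probes. Agt is past the threshold in all 4 comparisons, Slc1a2 lies left of 0 at the midline (−0.46), and Aldh1l1 lies within 0.15 of 0 in each.

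Fractions marked by region genes gave a second view. In each of the 6 mice the fraction with the highest signal of a region's marker (Gabra6 for the cerebellum, Hcrt for the hypothalamus, Slitrk6 for the thalamus, Spink8 for the hippocampus, Adora2a for the striatum and Doc2g for the olfactory bulb) was set against the mean of the other fractions of that mouse. In the hippocampus fraction 3 of the 9 genes were lower and 0 were higher, against 2.66% and 2.15% of all probes. Gfap was lower in 6 of 6 mice, by −0.28 to −0.97, with a mean of −0.61 ± 0.27 (SD, n = 6 mice, adjusted p = 0.0346). Aqp4 was lower in 6 of 6, by −0.17 to −0.72, with a mean of −0.45 ± 0.21 (SD, adjusted p = 0.0396), and Gja1 in 6 of 6, by −0.20 to −0.45, with a mean of −0.32 ± 0.09 (SD, adjusted p = 0.0292). A region's fraction is a whole slab, and regions shared slabs: S2 and H2 served for both the hippocampus and the cerebellum, C8 and Co9 for the hypothalamus and thalamus, H4 for the thalamus, striatum and olfactory bulb, So6 and Ho5 for the thalamus and olfactory bulb, and Ho6 for the hypothalamus and striatum. Leaving out mouse So, C, Co, H or Ho left 0 of these 3 calls, with adjusted p values from 0.0730 to 0.119, and median scaling left 1. Without mouse S, S100b was called too (−0.55).

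In the other regions 0 of 9 genes were called in this test by limma, against 0.0547% of all probes in the cerebellum, 0.405% in the hypothalamus, 1.38% in the thalamus, 0.0% in the striatum and 0.0137% in the olfactory bulb. At an unadjusted p under 0.05 the counts were 2, 3, 3, 4 and 2 of the 9 genes. The share of all probes at that level is not given, so these counts cannot be set against a background. Adora2a stood out little in some of the fractions named for the striatum. It was at −0.17 in H4 against a median of −0.28 in the other H fractions. In S9, the last sagittal fraction of mouse S, it was at 0.12 against −0.20, but in Co11 it was at 0.44 against −0.73. Gabra6 also stood out little in the sagittal cerebellum fractions, at 2.25 in S2 against 1.67 and 2.18 in So3 against 1.54. In the coronal ones it stood out clearly, at 3.79 in C3 against −2.92 and 3.72 in Co5 against −3.54. Agt was higher in 6 of 6 mice in the hypothalamus fraction, by 0.33 to 1.08 (mean 0.79, adjusted p = 0.0595), and in 6 of 6 in the thalamus fraction, by 0.33 to 1.13 (mean 0.67, adjusted p = 0.0593). Slc1a3 was lower in the thalamus fraction in 6 of 6 mice, by −0.12 to −0.47 (mean −0.29, adjusted p = 0.0675). These directions were not particular to those regions. Agt was also higher in 6 of 6 mice in the olfactory bulb fraction (mean 0.50). Slc1a3 was lower in 6 of 6 in the hypothalamus (−0.29) and striatum (−0.23) fractions, and higher in 6 of 6 in the cerebellum fraction (0.33). Aldh1l1 was lower in 6 of 6 in the hypothalamus (−0.20), thalamus (−0.20) and striatum (−0.16) fractions.

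Only the coronal cuts separate several of these regions, so the coronal pairs in which a marker reached 80% of its maximum were also compared with the other coronal pairs, a comparison added after the values were seen. It shares its arrays with the caudal and rostral comparison. In c2 to c4, the pairs of the cerebellum marker, 6 genes were higher and 1 was lower, against 26.9% and 19.2% of all probes. The excess was 1.33 for Aqp4 (adjusted p = 3.95e-13), 1.22 for S100b (adjusted p = 8.46e-10), 1.12 for Agt (adjusted p = 3.74e-07), 0.72 for Slc1a3 (adjusted p = 7.09e-07), 0.60 for Aldoc (adjusted p = 6.56e-07) and 0.45 for Gfap (adjusted p = 0.0463). Gfap had the opposite sign in the cerebellum fractions of the 6 mice, with a mean of −0.35 (adjusted p = 0.227), lower in 5 of 6. Slc1a2 was lower by −0.39 (adjusted p = 7.47e-04). In c9 and c10, the pairs of the striatum marker, 5 genes were lower, against 10.7% of all probes. They were Aqp4 (−1.35), Gfap (−1.12), Agt (−0.94), S100b (−0.94) and Aldoc (−0.41). Adora2a set these pairs apart only weakly, with relative signals of 1.27 and 1.41 against 1.05 at c11, 1.02 at c8 and 0.61 at c5. In c13, the olfactory pair, 1 gene was higher against 15.7% of all probes, Slc1a3, by 0.50 (adjusted p = 0.0168). In c7, the hippocampal pair, Aqp4 and S100b were lower, by −0.54 and −0.67, against 2.27% of all probes, and Gfap (−0.38, adjusted p = 0.574) and Gja1 (−0.19, adjusted p = 0.737) were not called. Aqp4 and S100b were also lower in c8, the pair of the hypothalamus and thalamus, by −0.77 and −0.65, against 2.14% of all probes.

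The mice of a plane differed for some genes. Of the 9 genes, 6 differed between mice in limma's F test over the planes, against 63.1% of all probes. Gja1 had the largest F (26.8, adjusted p = 2.45e-07), followed by Aldh1l1 (13.9, adjusted p = 4.22e-05), Slc1a2 (12.5, adjusted p = 8.98e-05) and Gfap (11.0, adjusted p = 2.03e-04). In the coronal plane 2 genes were lower and 2 higher in Co than in C, against 27.4% and 26.1% of all probes. Gja1 was lower in Co by 0.51 ± 0.06 (SE, adjusted p = 2.66e-08) and Gfap by 0.61 ± 0.11 (SE, adjusted p = 2.65e-05), and in each of the 13 pairs both genes were lower in Co. Agt was higher in Co by 0.29 ± 0.11 (SE, adjusted p = 0.0359) and Slc1a2 by 0.17 ± 0.05 (SE, adjusted p = 0.00515). Probes of a gene disagreed here: the other Slc1a2 probe was lower in Co by 0.25 ± 0.05 (SE, adjusted p = 1.84e-04), and the other 2 Aqp4 probes were lower by 0.42 and 0.34, whereas the Aqp4 probe used differed by 0.02 (adjusted p = 0.872). Differences between the mice are therefore not settled for these genes. In the sagittal plane 3 genes were lower and 0 higher in So than in S, against 17.5% and 12.4% of all probes: Slc1a2 and Aldh1l1 by 0.30 each and Aldoc by 0.21. Between H and Ho 0 genes were called by limma, against 5.52% of all probes, and 3 had an unadjusted p under 0.05. None of the 9 genes had a difference between zones that itself differed between the mice of a plane. The adjusted p was under 0.05 in 0 of 9 for each axis. Of all probes, 3.31% were called for caudal and rostral, 0.0219% for ventral and dorsal and 0.00547% for midline and lateral. At an unadjusted p under 0.05 the counts were 2, 1 and 1 genes. No share of all probes is given at that unadjusted level, here or for H and Ho.

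The 9 profiles fell into more than 1 shape. The correlations that follow are over the 61 fractions, centred within each series, and the fractions share brains, slides and the same mixture of regions, so they are descriptions. Aqp4 and S100b were the most alike pair (r = 0.94), followed by Aldoc with S100b (0.88), Gfap with Gja1 (0.84), Aqp4 with Aldoc (0.84) and Gfap with Aqp4 (0.82). Agt went with S100b (0.71) and Aqp4 (0.70). Slc1a2 ran against Slc1a3 (−0.37) and Agt (−0.36), and Slc1a3 against Agt (−0.26). Aldh1l1 was closest to Aldoc (0.60) and showed no relation to Agt (−0.01).

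**Figure D4:**
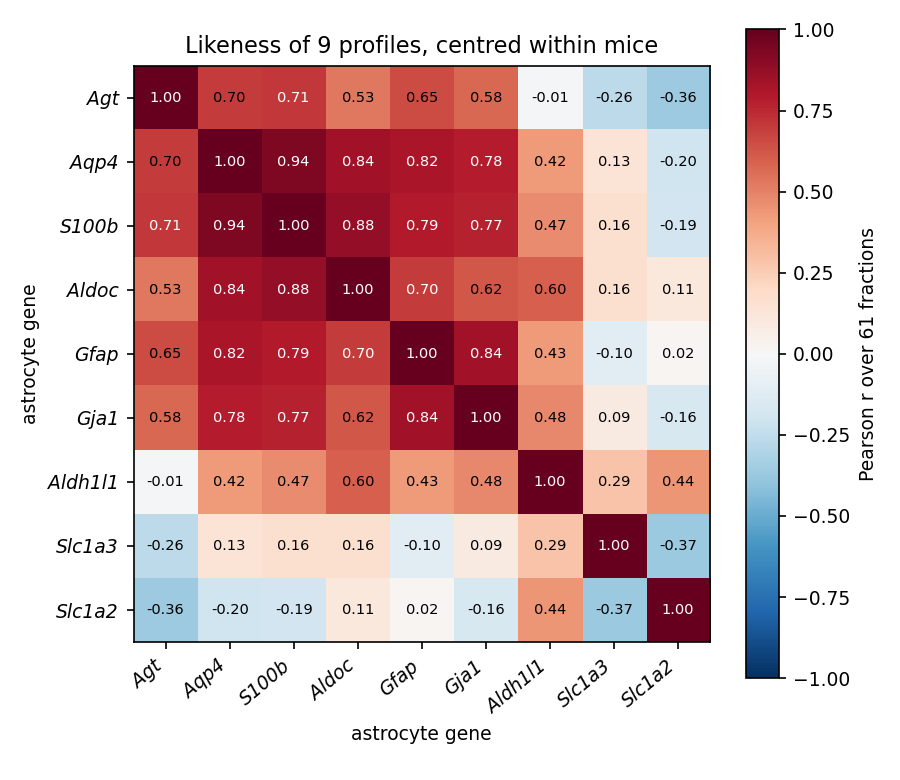
Pearson r between the profiles of 9 astrocyte genes over 61 fractions (both axes list the genes, colour and number give r), with values centred within each of the 6 series. Agt, Aqp4, S100b, Aldoc, Gfap and Gja1 form a block with r from 0.53 to 0.94, and Slc1a2 and Slc1a3 stand outside it, with r = −0.37 between them.

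For each gene the 3 genes with the most similar profile were taken among 11521 genes with a probe detected on all arrays. Agt was most like Sparc (r = 0.95), a secreted matrix protein listed here for non-telencephalic astrocytes, then Bbox1 (0.94) and Itgae (0.92). S100b was most like Cox7a1 (0.97), Chpt1 (0.97) and Rida (0.96), and Aqp4 like Acot11 (0.95), Chpt1 (0.95) and Maoa (0.94), so that Chpt1 stood near both. Gfap was most like Serpind1 (0.93), Fibin (0.91) and Cp (0.91), the last being ceruloplasmin. Gja1 was most like Cpq (0.94), Smo (0.93), the hedgehog receptor component, and Acadl (0.92). Aldoc was most like Tlcd1 (0.94), Nat8 (0.92) and Nat8f1 (0.92), and Nat8 and Nat8f1 are close relatives whose probes may share signal. Slc1a2 was most like Cyhr1 (0.90), Tmem14a (0.88) and Dohh (0.86), Slc1a3 like 0610040J01Rik (0.87), Sap30 (0.86) and Lin7a (0.86), and Aldh1l1 like Bcl7c (0.85), Polr2k (0.83) and Agpat3 (0.83).

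A list of 40 other astrocyte genes, of which 39 were named and tested, was examined in the same comparisons. Between the caudal and rostral zones 21 of them were higher caudally and 6 lower, with a median of 0.37, against 27.5% and 20.2% of all probes and a median of 0.10. The largest excesses were those of Itih3 (1.62), Slc4a4 (1.32), a bicarbonate cotransporter, Atp1b2 (1.25), a subunit of the sodium pump, Slc14a1 (1.21), the urea transporter, Nfia (1.10), a nuclear factor I gene, and Slc7a10 (1.06), a transporter of small amino acids. The zones did not overlap in any of these 6, but they were picked for their size. The share of all probes without overlap is not given. Lower caudally were Gldc (−1.41), of the glycine cleavage system, Dio2 (−1.30), which activates thyroid hormone, Slc15a2 (−1.12), a peptide transporter, Fjx1 (−0.84), Mt3 (−0.56), a metallothionein, and Glul (−0.27), glutamine synthetase. In the middle of the axis 19 were lower and 1 was higher, Clu (0.32), against 19.9% and 15.3% of all probes. Ventrally 5 were higher and 2 lower, against 8.47% and 5.81% of all probes. At the midline 9 were higher and 5 lower, against 10.6% and 9.01% of all probes, with the largest excess in Slc6a11 (1.86), the astrocytic GABA transporter GAT-3.

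Other genes of the same pathways are given against the 27.5% higher and 20.2% lower caudally among all probes. Of 9 genes of glutamate and GABA clearance, 2 were higher caudally and 4 lower. Slc1a6, the glutamate transporter of Purkinje cells, was higher by 3.52, and the neuronal Slc1a1 (−1.09) and the neutral amino acid transporter Slc1a4 (−0.78) were lower. Of 11 genes of water and potassium balance, 6 were higher caudally and 1 lower, among them the inward rectifiers Kcnj10 (0.78) and Kcnj16 (0.63), and 8 were lower in the middle and 0 higher, against 19.9% and 15.3% of all probes. The lower gene was Aqp1 (−1.48), the water channel of the choroid plexus. Kcnj10 was also higher ventrally (0.59) and at the midline (0.84), with no overlap of the zones in either.

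Of 7 connexin and pannexin genes, 4 were higher caudally and 1 lower. Among the higher ones were Gjc3 (2.10) and Gjb1 (2.08), which are oligodendrocyte connexins, and Gjd2 (1.44), the neuronal connexin 36, and Panx1 was lower (−1.36). Of 8 renin-angiotensin genes, 4 were higher caudally and 2 lower: the receptor Agtr2 (2.30), Ren1 (1.38), the converting enzyme Ace (0.67) and the aminopeptidase Enpep (0.51) were higher, and the receptor Agtr1a (−0.79) and Anpep (−0.43) were lower. Agtr1a and Agtr2 were the 2 called ventrally and at the midline, both higher, against 8.47% and 10.6% of all probes, with Agtr1a at 1.73 and 0.79. For Agtr2 no size is given there, since it was well above background on 2 of the 4 dorsal and 1 of the 8 lateral arrays. Agtr1a was detected on 7 of the 8 caudal and 6 of the 8 lateral arrays, and Ren1 on 5 of the 8 rostral arrays.

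**Figure D5:**
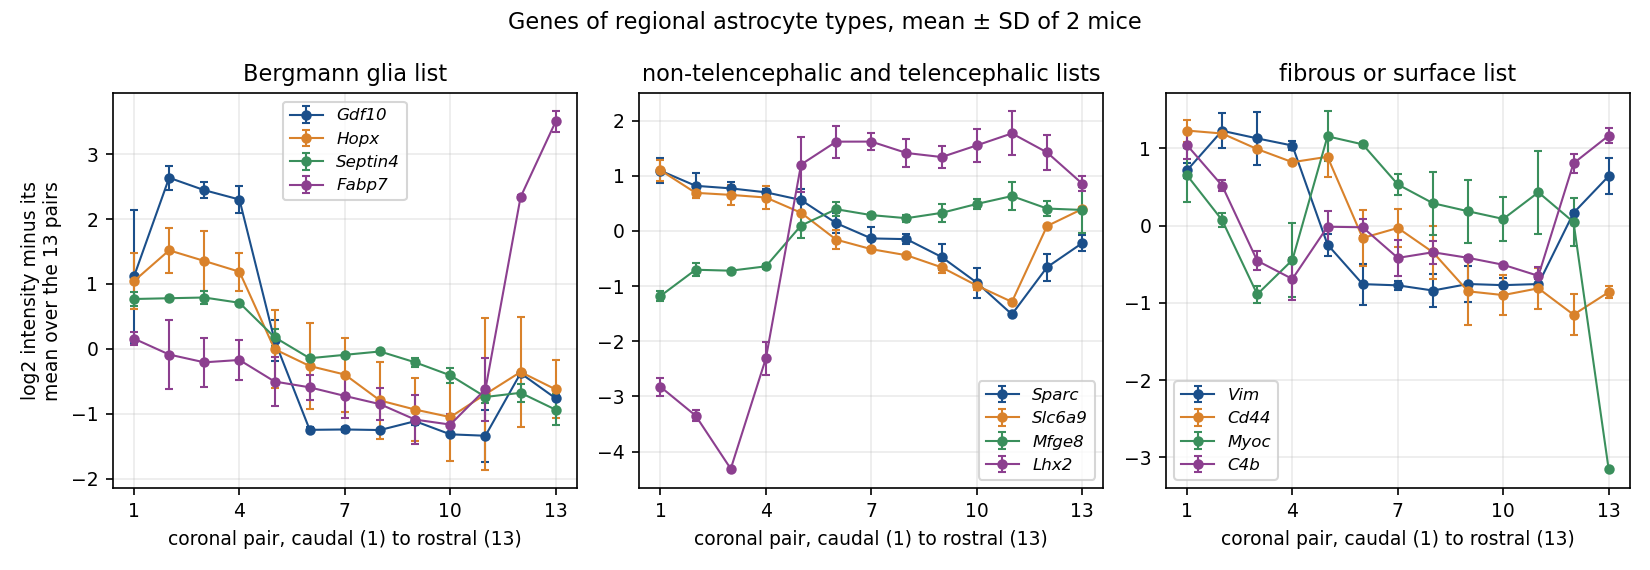
Genes of regional astrocyte types over the 13 coronal pairs from the caudal to the rostral end (horizontal axis), as log2 intensity minus the mean of that gene over the 13 pairs (vertical axis, own range for each panel), with points for the mean and bars for the SD of 2 mice. Gdf10 is highest at c2 to c4, Sparc and Slc6a9 fall to c11 while Mfge8 and Lhx2 are low at c1 to c4, and Fabp7 rises at c12 and c13.

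Regional types of astrocyte were followed through lists of their genes, whose caudal counts stand against 27.5% of all probes higher and 20.2% lower. Of 7 genes listed for Bergmann glia, 4 were higher caudally and 1 lower. Gdf10, a growth factor of Bergmann glia, had pair means of 2.13, 1.94 and 1.80 at c2, c3 and c4, 0.61 at c1 and between −1.84 and −0.37 from c5 to c13. Its difference between the zones was 3.07, that of Hopx 1.96, of Gria4 1.62 and of Septin4 1.45. Fabp7, a fatty acid binding protein of radial glia that is also made in the olfactory bulb, was lower caudally (−1.09), since its means reached 5.59 at c12 and 6.75 at c13. Slc1a3 was high at both of these levels. Genes of Purkinje cells (5 of 5) and of granule cells (5 of 5) were higher caudally too, and their part in the values of Gria4, Septin4 and Hopx was not tested.

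Of 4 genes listed for telencephalic astrocytes, 4 were lower caudally, and of 5 for non-telencephalic ones, 5 were higher. Mfge8, a secreted protein of telencephalic astrocytes, differed by −1.29 and the transcription factor Lhx2 by −4.60, both with no overlap. Emx2 was not well above background on any caudal array and was at least 43.2-fold higher rostrally, and Irx5 was not above it on any rostral array and was at least 17.5-fold higher caudally. Sparc (1.68) and Slc6a9 (1.21), the glycine transporter GLYT1, were higher caudally with no overlap, and at the midline by 1.09 and 1.15. All 5 non-telencephalic genes were higher at the midline, against 10.6% of all probes, and Mfge8 was lower there (−0.60). Agt was likewise higher caudally and at the midline, but so were Aqp4 and all 9 oligodendrocyte genes. From c11 to c13 Sparc and Slc6a9 rose as Agt did, to 4.70 and 5.52, and Irx2 did not (−6.83 at c13). Lhx2, Emx2, Zic1 and the Irx genes are also expressed in neurons.

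Of 7 genes listed for fibrous or surface astrocytes, 4 were higher caudally and 1 lower. Cd44 differed by 1.99 with no overlap, Vim by 1.21, Synm by 0.80 and Myoc by 0.50, and Id3 by −0.57. The difference of Myoc rested on c13, at −2.79. Its other rostral pairs lay between 0.40 and 0.79, the caudal pairs between −0.53 and 1.01, and its highest pair was c5, at 1.51. Ventrally, C4b (1.30) and Cd44 (0.57) were higher with no overlap, together with Id3 (0.35), as Gfap was. The summed level of meningeal fibroblast genes had an r of 0.84 with Gja1 and 0.77 with Gfap over the 61 fractions, that of oligodendrocyte genes 0.80 with Agt, and that of neuronal genes 0.68 with Slc1a2. These fractions share brains and arrays, and the part of meninges, myelin or neurons in these 4 genes was not tested.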

How the data were processed

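RNA of 61 brain fractions from 6 mice was measured on 1-colour Agilent arrays, 1 per fraction. The deposited scanner files hold intensities that the authors extracted with Agilent Feature Extraction (9.1 in the submitters' processing notes), with a precision set by how many arrays there are. The array design named in the file headers differs from that in the study's methods, and the headers were followed. A deposited table of the authors' normalized intensities (36558 probes) matched the arrays' signals apart from 1 constant per array and served as an alternative. It left 0 columns unused.

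Control spots were left out. Outlier spots (0.0869%) were left out only where the probe had another usable spot on that array. Where it had none, the values were kept (2235 values of a probe on an array). Spots of 1 probe were averaged, and log2 processed signals were taken relative to the 75th percentile of each array. Of 41174 probes, 36573 were well above background on at least 1 array, and 22951 were named through RefSeq identifiers. Tests were moderated F tests and contrasts in limma 3.58.1 (R 4.3.3), with 1 mean per pair. Each region fraction was tested as the difference from the other fractions of its mouse. Figures were drawn with matplotlib 3.10.9 and tables handled with pandas 2.3.3 and numpy 2.4.6 (Python 3.11.15). The code was tested on simulated data.

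Groups came from the sample labels, and the labelled positions of the pairs from the study. Fractions of 1 mouse share an animal: deviations from the pair means had a median r of 0.278 between pairs of the same plane and of −0.0255 between planes, and the mouse was used as a block in an alternative fit. The other alternatives were median scaling, normexp (offset 50) with quantile normalization on the median signals, the authors' values, a floor of 5, other detection filters, slide and scan-day blocks, an unmoderated F test, single planes, a threshold of 0.01, single arrays or mice left out, and other probes. The comparison of coronal pairs at 80% of a marker's maximum was added after the data were seen.

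All 10 genes were named by rule, of each list the genes past the test at its ends, and for each gene the 3 with the highest r. Genes and lists were chosen with earlier results of these data known. Of the listed genes, Slc25a18, Kcnj13, Ccdc153, Tmem212, Enkur and Csf1r were not tied to a probe. Fibrous-astrocyte, endothelial (0 higher, 1 lower caudally), ependymal (1 and 1 of 3) and neuronal (3 and 2 of 7) lists were tested alike. Some listed genes are not reported here by name.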

Additional observations from a re-analysis of the deposited data

Results flagged for a closer look

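The 54 differences of a gene in a region's fraction were examined for a mouse far from the other 5, and 2 stood out, where chance flags about 1 in 20 such groups. In the striatum fraction Aldh1l1 was lowest in mouse Ho, at −0.373, against −0.17 to −0.05 in the other mice. In the hippocampus fraction Aldoc was highest in mouse S, at 0.322, against −0.37 to −0.16 in the others. Neither gene was called in these regions, and no cause was tested.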

How the results depend on the processing

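Counts of genes called, of 9, changed with the arrays and blocks used. Of the 7 genes varying over the pairs, 1 was called in the sagittal plane alone and 3 in the horizontal. Under a fixed slide effect, the counts fell from 5 to 2 for caudal against rostral, from 6 to 3 for the middle and from 3 to 0 for ventral against dorsal. Calls over all 36573 probes fell as well, from 17419 to 3574, from 12865 to 7654 and from 5224 to 1617. For midline against lateral, 3 became 6 with the mouse as a replicate block or scan day as a block, and 5 with the slide as a random block. Over all probes, 7163 calls became 12170, 12369 and 9550 with these blocks. A fixed slide effect kept the midline calls of Agt, Aqp4 and Slc1a2 and added Aldh1l1 (−0.15, adjusted p = 0.0206). Calls over all probes rose to 13495 in that fit. In the paired fit with the mouse block, 9 genes varied over the pairs. A difference between zones that differed between mice was called for 1 gene, in place of 0, with normexp or with probes detected on all arrays.

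In the region fractions, hippocampus calls fell from 3 to 1 with median scaling or the authors' values. Hypothalamus calls rose from 0 to 1 with normexp or all-array probes, and thalamus calls from 0 to 1 with median scaling or the authors' values and 2 with all-array probes. Coronal marker pairs gave 7 calls for the cerebellum, 2 for the hypothalamus, 2 for the thalamus, 5 for the striatum and 1 for the olfactory bulb, each in place of 0, and 2 in place of 3 for the hippocampus, where Gfap and Gja1 were lost and S100b was gained. With 1 array left out, counts ranged from 7 to 8 over the pairs, 5 to 6 for caudal against rostral, 6 to 7 for the middle, 2 to 3 for ventral against dorsal, 3 to 5 for midline against lateral and 5 to 8 between mice, and with 1 mouse left out from 0 to 4 in the hippocampus.

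None of the differences that changed sign was called in the main comparison. Caudal against rostral, Slc1a2 was 0.041 with its other probe, Slc1a3 was −0.057 with median scaling, −0.058 with the authors' values and −0.0080 to 0.19 with 1 array left out (below 0 without Co2 or Co12), and Aldh1l1 was −0.025 under a fixed slide effect. At the midline Aldoc was 0.052 with normexp and −0.12 to 0.041 with 1 array left out (above 0 without S1, S2, So5, So6 or So10). In the cerebellum Gfap was −0.35 in the main comparison and 0.45 in the coronal pairs, and Agt was 1.12 there, 0.26 in fractions at 80% of the marker and −0.32 to 0.095 with 1 mouse left out (above 0 without S, So or H). In the hypothalamus S100b was −0.18 to 0.021 with 1 mouse left out (above 0 without C or Co), and in the olfactory bulb Slc1a3 was −0.024 with median scaling, −0.023 with the authors' values, −0.027 at 80% of the marker, and −0.12 to 0.079 with 1 mouse left out (below 0 without C or Co). The cause was not tested. Of all single values under the other settings, arrays left out aside, 601 kept direction and side of the threshold, 60 passed it newly, 32 lost it and 11 changed sign.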
